A study of Rattus norvegicus with 9 samples.

Results

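The genes described are 9 members of the interleukin 6 (IL-6) family pathway, taken by gene name from the 35843 genes of the expression table. They are the ligands Il6, Lif and Clcf1, the receptors Il6r, Il6st, Osmr and Lifr, the transducer Stat3 and its feedback inhibitor Socs3. Each name had 1 row in the table. In RefSeq's annotation of build GRCr8, Il6r, Il6st, Osmr and Lifr all lie on chromosome 2, Stat3 and Socs3 on chromosome 10, Clcf1 on chromosome 1, Il6 on chromosome 4 and Lif on chromosome 14. The levels come from RNA-seq of the left ventricle of adult male Sprague-Dawley rats at day 28, with 3 rats in each of 3 groups. Every label gives 2 numbered items under its rat's number without saying whether these were pieces of tissue, sequencing runs or animals, and the table holds 1 column for both, which is called a rat here. Group Sham had the operation without ligation and saline by daily gavage. In group MI the left anterior descending (LAD) coronary artery was tied off for good, and the rats received the same saline. Group MI + DAPA had the ligation and dapagliflozin (DAPA), an inhibitor of the kidney's sodium-glucose cotransporter SGLT2, at 1 mg/kg by daily gavage from the first day for 28 days. The comparisons ask what ligation changed, and what daily DAPA changed in ligated hearts. No group with DAPA and no ligation was analysed here. The study took its molecular samples mainly at the border of the infarct, and Sham samples from the matching place. For the sequenced samples it names the left ventricle and, in ligated rats, infarct myocardium, so whether border or scar was sequenced is not settled. A sample can mix muscle, scar and blood-derived cells.

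Cytokines of the IL-6 family act through a shared signalling chain, gp130, which Il6st encodes. IL-6 first binds its own receptor chain, encoded by Il6r, whereas leukemia inhibitory factor (Lif) and oncostatin M pair gp130 with the chains encoded by Lifr and Osmr. The occupied receptor activates Janus kinases, which phosphorylate STAT3, and STAT3 induces Socs3, whose product shuts the receptor off again. In the heart this pathway is known for its part in muscle cell survival, hypertrophy and inflammation after injury.

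Levels are FPKM, fragments scaled to transcript length and to a library size, and so can be set beside each other between genes. That library size was not the total of recovered reads given below. It was smaller than this total in each Sham rat, larger in each MI rat, and on either side of it in MI + DAPA rats. Differences are log2 fold changes of FPKM + 1 from limma, which understates changes of genes near or below 1 FPKM. A gene was tested where at least 3 of the 6 rats compared had 1 FPKM or more, and it was called at an unadjusted p under 0.05 with an absolute log2 fold change over 1. Of the 9 genes, 7 were tested, and Il6 and Lif were too low in all groups. The 3 comparisons share their rats, so their results are not independent of each other.

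Transcripts of 3 of the 4 receptors rose after ligation, led by the shared chain Il6st, while Il6, Lif and Clcf1 stayed under 2 FPKM in ligated hearts. After ligation Il6st and Il6r were called higher than in group Sham, and Lifr and Stat3 were higher at p under 0.05 with smaller fold changes. Comparing treated with untreated ligated hearts, no member was called. Clcf1 and Il6r were lower there at an unadjusted p under 0.05, by less than 1 on the log2 scale, and neither passed after adjustment over all genes. Clcf1 was tested there only because the MI rats reached 1 FPKM, which no treated rat did. Bulk tissue cannot tell fewer cells of a type from less RNA per cell, for these or any other member.

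Set beside all genes, the counts read as follows. For MI vs. Sham 2 of the 7 tested members were called higher, against 12.1% of 13485 genes, and 4 were higher at p under 0.05, against 24.5%. The ranges of 4 did not overlap in the higher direction, against 27.1% of genes. For MI + DAPA vs. MI 0 of 7 were called, against 1.11% of 13251 genes called lower. There 2 were lower at p under 0.05 and without overlap, against 3.9% and 7.16% of genes, and 1 of these was Clcf1, which met the level filter through group MI alone. For MI + DAPA vs. Sham 1 of 7 was called higher, against 9.54% of 13359 genes. At p under 0.05 alone 4 were higher and 1 lower, against 21.1% and 20.4%, and the same numbers did not overlap, against 23.2% and 23.3%; the lower one was Clcf1, which met the filter through group Sham alone. The median log2 fold change of the tested members was 0.61, -0.26 and 0.45 in the 3 comparisons, where that of all genes was -0.01, -0.02 and 0.01.

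**Figure D1:**
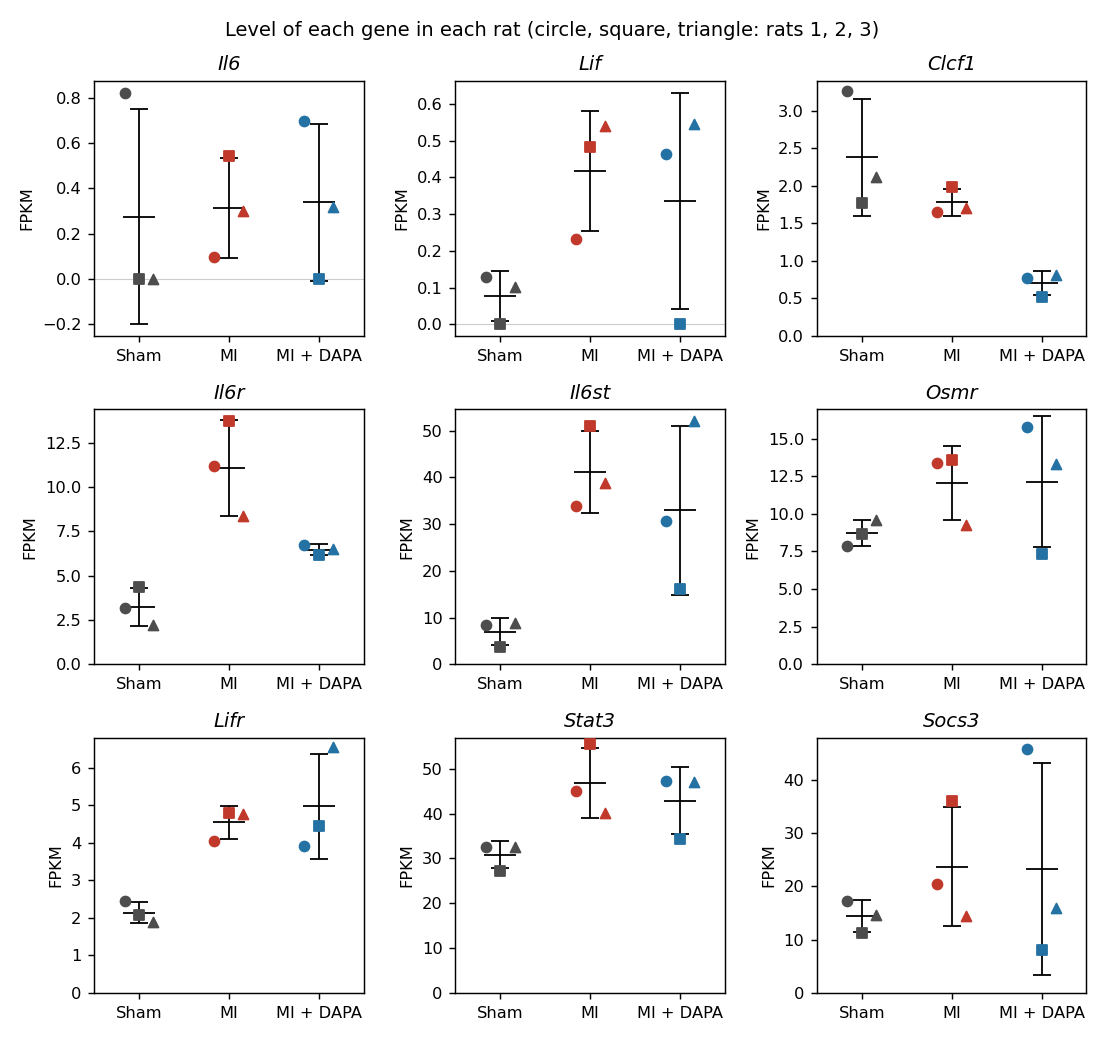
FPKM (linear axis, a separate scale per panel) of the 9 genes in each rat of groups Sham, MI and MI + DAPA; crossbars give the mean and the standard deviation (n = 3), which reaches below 0 for Il6. Il6st ran from 3.72 to 8.87 in group Sham and from 33.9 to 51.0 in group MI, while Clcf1 stayed under 1 in the 3 rats of group MI + DAPA.

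Il6, the ligand that names the family, was at or near its detection floor. Its level was 0.823, 0 and 0 FPKM in the 3 Sham rats, 0.0990, 0.542 and 0.300 in the MI rats, and 0.696, 0 and 0.317 in the MI + DAPA rats. The highest of these levels rested on 9 reads among the Sham rats, 10 among the MI rats and 12 among the treated rats. A count of 0 allows up to 3 reads, which would be 0.280 and 0.326 FPKM in the 2 rats of group Sham without reads and 0.179 in the rat of group MI + DAPA. All 3 groups overlapped, and a difference in Il6 was not detectable at this depth (two-sided exact permutation test of MI vs. Sham, p = 0.8, where 3 against 3 rats cannot go below 0.1).

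The stretch of 250 bases before the Il6 transcription start is printed because this ligand had so little transcript in a tissue where its receptor chains rose. It lies at chr4:5894576-5894825 on the minus strand of RefSeq build GRCr8, reads 5′ to 3′, and lies outside the gene. The first run of capitals is a cyclic AMP response element, TGACGTCA, from 162 to 155 bases before the start, and the second is a kappaB motif from 68 to 59 bases before it.
Il6: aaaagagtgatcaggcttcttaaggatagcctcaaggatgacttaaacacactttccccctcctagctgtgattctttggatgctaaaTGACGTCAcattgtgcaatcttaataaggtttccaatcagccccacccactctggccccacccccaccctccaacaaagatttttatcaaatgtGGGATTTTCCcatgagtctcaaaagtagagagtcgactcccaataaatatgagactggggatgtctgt
Of 33469 RefSeq promoter windows of this length, 1.59% hold TGACGTCA and 3.54% hold a kappaB motif on either strand. The table has a window for 7 of the 9 members, and a kappaB motif was found in those of Il6 and Socs3. The STAT motif TTCNNNGAA was found in 0 of the 7 windows and in 7.67% of all windows, which says only that these letters are not in that stretch. These matches describe the sequence and are not measured binding sites.

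Lif, which signals through Lifr and gp130, was the other ligand under 1 FPKM in all 9 rats. Its level was 0.129, 0 and 0.102 FPKM in the Sham rats, 0.232, 0.483 and 0.539 in the MI rats, and 0.463, 0 and 0.546 in the MI + DAPA rats. Behind these lay 3, 0 and 2 reads in the Sham rats, 10, 19 and 23 in the MI rats, and 17, 0 and 22 in the MI + DAPA rats. The lowest rat of group MI was above the highest of group Sham, which gave the smallest p that 3 against 3 rats allow (two-sided exact permutation test, p = 0.1). Rat 2 of group MI + DAPA had no read of Lif or of Il6, whereas Lif in the other two rats lay within or just above the range of group MI.

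Clcf1 (ENSRNOG00000018752) encodes cardiotrophin-like cytokine, which signals through gp130, Lifr and the ciliary neurotrophic factor receptor. Its level was 3.26, 1.77 and 2.11 FPKM in the Sham rats, 1.65, 1.98 and 1.71 in the MI rats, and 0.779, 0.524 and 0.808 in the MI + DAPA rats. The 3 rats of group MI + DAPA lay under all 6 others, and groups Sham and MI overlapped. No treated rat reached 1 FPKM, so both comparisons with treated hearts were tested only through the group with the higher level. Treated hearts had 0.395 times the mean level of group MI, with a log2 fold change of -0.71 (SE 0.18). It passed an unadjusted p under 0.05, but adjustment over all 13251 genes (Benjamini-Hochberg) gave limma's adjusted p = 0.558, and no gene passed 0.05 there. Against group Sham the log2 fold change was -0.97 (SE 0.25, adjusted p = 0.0261 by limma). The fold changes were the same without that filter, where limma's adjusted p was 0.675 against group MI and 0.0501 against group Sham.

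The low level of Clcf1 in group MI + DAPA rested on 29, 19 and 33 reads, against 72, 79 and 74 in group MI. With 0.1 in place of 1 added to each FPKM, its log2 fold change vs. group MI was -1.24 and it was called. With every rat scaled to the same summed FPKM, the difference from group Sham went to -0.28 and no longer passed p under 0.05. That scaling moved the median of all genes, and relative to this median Clcf1 was at -1.28, against -0.98 without the scaling.

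Among the receptors, Il6st stood out. This gene for gp130 (ENSRNOG00000013963) was at 8.38, 3.72 and 8.87 FPKM in the Sham rats, 33.9, 51.0 and 38.7 in the MI rats, and 30.7, 16.0 and 52.1 in the MI + DAPA rats. Each of the 6 ligated hearts was above each Sham heart, and rat 2 of group MI + DAPA was the lowest of the ligated hearts. Ligation raised the mean 5.89-fold, from 6.99 ± 2.84 to 41.2 ± 8.81 FPKM (SD, n = 3), with a log2 fold change of 2.45 (SE 0.31, adjusted p = 0.00199 by limma). Treated hearts were 2.01 above Sham hearts on the log2 scale (SE 0.44, adjusted p = 0.0153 by limma).

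Between group MI + DAPA and group MI the level of Il6st overlapped, with a log2 fold change of -0.44 (SE 0.40, adjusted p = 0.693 by limma). This value turned on single rats of group MI + DAPA. It was -0.02 without rat 2 of that group and -0.84 without rat 3, where it passed an unadjusted p under 0.05 in limma but not after adjustment.

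Il6r (ENSRNOG00000020811), the chain that binds IL-6 itself, was the only receptor with 3 separate ranges. Its level was 3.18, 4.36 and 2.20 FPKM in the Sham rats, 11.2, 13.7 and 8.34 in the MI rats, and 6.75, 6.15 and 6.51 in the MI + DAPA rats. Every rat of group MI + DAPA lay above group Sham and below group MI. After ligation Il6r rose 3.41-fold, with a log2 fold change of 1.52 (SE 0.25, adjusted p = 0.00478 by limma). The mean of treated hearts was 0.583 times that of group MI, with a log2 fold change of -0.67 that passed an unadjusted p under 0.05 and not the adjusted one (SE 0.19, adjusted p = 0.558 by limma). Leaving out each rat in turn moved that value between -0.84 and -0.51. Treated hearts were 0.85 above Sham hearts (SE 0.22, adjusted p = 0.0274 by limma).

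Lifr encodes the chain that Lif and Clcf1 share. Its level was 2.45, 2.08 and 1.90 FPKM in the Sham rats, 4.05, 4.80 and 4.78 in the MI rats, and 3.91, 4.45 and 6.57 in the MI + DAPA rats. All ligated hearts exceeded all Sham hearts, and groups MI and MI + DAPA overlapped. It rose 2.12-fold after ligation (log2 fold change 0.82, SE 0.17, adjusted p = 0.0097 by limma), short of the fold threshold. With 0.1 in place of 1 added to each FPKM the value was 1.06 and Lifr was called. The difference of treated from Sham hearts was 0.91 (SE 0.22, adjusted p = 0.0216 by limma), and that from MI hearts was 0.09 (SE 0.19).

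Osmr, the oncostatin M receptor chain, had the smallest fold change of the 4 receptors in each comparison. Its level was 7.86, 8.68 and 9.61 FPKM in the Sham rats, 13.4, 13.6 and 9.25 in the MI rats, and 15.7, 7.34 and 13.3 in the MI + DAPA rats. Rat 3 of group MI and rat 2 of group MI + DAPA lay within or below the range of group Sham. The log2 fold change was 0.41 after ligation (SE 0.19, adjusted p = 0.12 by limma), 0.58 without rat 3 of group MI (adjusted p = 0.0496 by limma), and that of treated vs. untreated ligated hearts was -0.03 (SE 0.29).

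**Figure D2:**
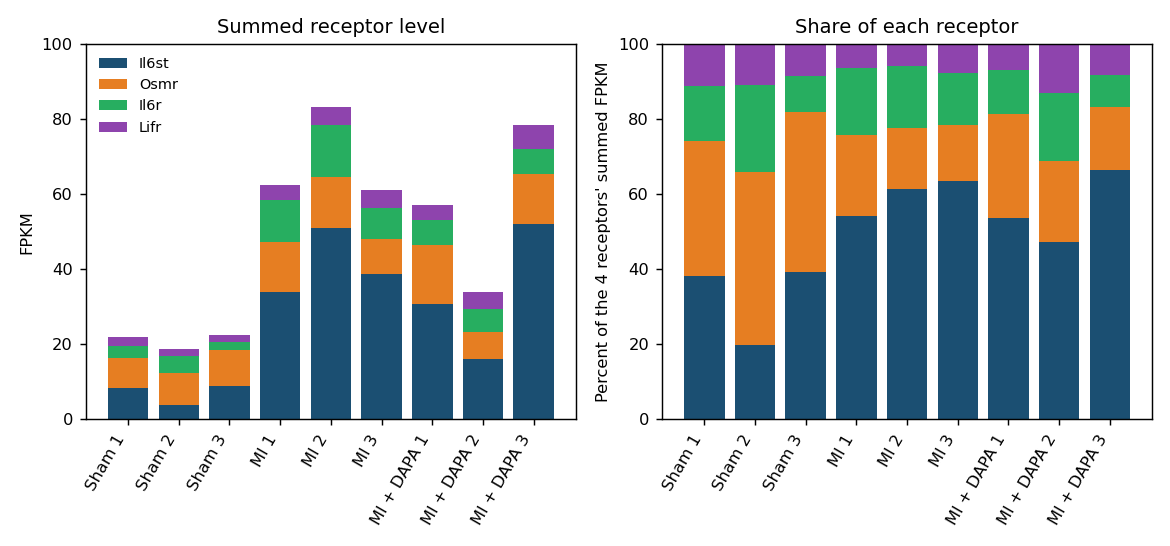
Left, FPKM of the 4 receptor genes stacked for each of the 9 rats; right, the share of each receptor in that sum, in percent. Il6st took 19.8% to 39.3% of the sum in Sham hearts, 54.3% to 63.4% in MI hearts and 47.2% to 66.4% in MI + DAPA hearts.

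The share of each receptor in the summed receptor transcripts was also compared. This measure was chosen after the levels were seen, and as a ratio within a library it does not depend on how libraries were scaled to each other. The 4 receptors summed to 18.8 to 22.6 FPKM in Sham hearts, 61.1 to 83.1 in MI hearts and 34.0 to 78.5 in treated hearts. Il6st held 32.5% ± 11.0 of the sum in Sham, 59.7% ± 4.79 in MI and 55.8% ± 9.75 in MI + DAPA hearts (SD, n = 3). Osmr held 41.5% ± 5.15, 17.6% ± 3.31 and 22.1% ± 5.32 in the same order. Il6st was the highest receptor in all 6 ligated hearts, and Osmr was the highest in 2 of the 3 Sham hearts. For both shares groups Sham and MI did not overlap (two-sided exact permutation test, p = 0.1 for each, the smallest possible). Between groups MI + DAPA and MI the shares of the 4 receptors overlapped (exact permutation p from 0.2 to 0.6).

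The ratio of Osmr to Lifr, the alternative partners of gp130 for oncostatin M, was taken on the log2 scale of FPKM + 1. It was 1.63 ± 0.26 in Sham, 1.22 ± 0.35 in MI and 1.10 ± 0.60 in MI + DAPA hearts (SD, n = 3). The groups overlapped, and the exact permutation p was 0.2 for MI vs. Sham, 0.9 for MI + DAPA vs. MI and 0.3 for MI + DAPA vs. Sham.

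Stat3, the transcription factor that carries the signal to the nucleus, had the highest mean level of the 9 genes in each group. It was at 32.6, 27.3 and 32.6 FPKM in the Sham rats, 44.9, 55.5 and 40.2 in the MI rats, and 47.3, 34.2 and 47.1 in the MI + DAPA rats. The Sham hearts lay under all ligated hearts. Stat3 rose 1.52-fold after ligation (log2 fold change 0.58, SE 0.17, adjusted p = 0.03 by limma). Treated hearts were 0.45 above Sham hearts at an unadjusted p under 0.05 that did not hold after adjustment (SE 0.18, adjusted p = 0.1 by limma). They differed from MI hearts by -0.13 (SE 0.19, adjusted p = 0.812 by limma). These are transcript levels, and phosphorylation of STAT3 was not measured by this assay.

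Socs3, whose product binds gp130 and Janus kinases and ends the signal, varied most between rats of a group among the tested members in groups MI and MI + DAPA. Its level was 17.3, 11.3 and 14.6 FPKM in the Sham rats, 20.5, 36.2 and 14.5 in the MI rats, and 45.8, 8.15 and 15.9 in the MI + DAPA rats. Group MI + DAPA held both the highest and the lowest of the 9 rats, and the coefficient of variation was 20.8%, 47.1% and 85.4% in the 3 groups. The log2 fold change was 0.61 after ligation (SE 0.33, adjusted p = 0.179 by limma) and -0.26 for treated vs. untreated ligated hearts (SE 0.61, adjusted p = 0.886 by limma). The former was 0.27 without rat 2 of group MI and 0.90 without rat 3, where it passed an unadjusted p under 0.05 in limma but not after adjustment. The latter was -0.90 without rat 1 of group MI + DAPA and 0.28 without rat 2.

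The groups overlapped in Socs3 relative to Stat3. The log2 ratio of Socs3 to Stat3 was -1.06 ± 0.17 in Sham, -1.04 ± 0.41 in MI and -1.17 ± 1.00 in MI + DAPA hearts (SD, n = 3). The exact permutation p was 0.9 for each of the 3 comparisons, and the values of group MI + DAPA, -0.05, -1.94 and -1.51, spanned those of both other groups.

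**Figure D3:**
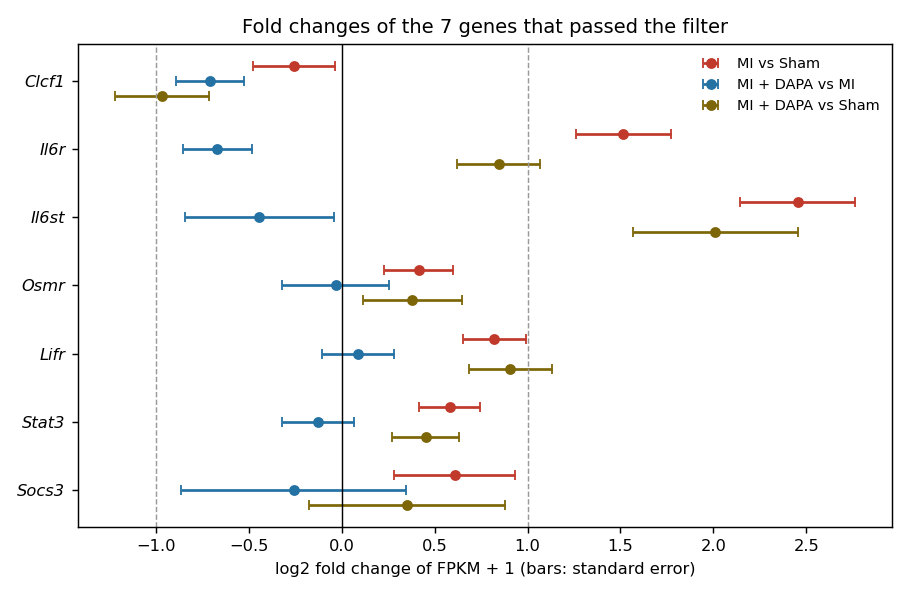
Log2 fold change of FPKM + 1 (horizontal axis; bars, standard error) of the 7 tested genes in the 3 comparisons; dashed lines mark an absolute log2 fold change of 1. Il6st and Il6r lie beyond the line for MI vs. Sham, at 2.45 and 1.52, and no gene does for MI + DAPA vs. MI.

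By mean level the order of the genes changed after ligation. In group Sham it was Stat3, Socs3, Osmr, Il6st, Il6r, Clcf1, Lifr, Il6 and Lif. In group MI Il6st stood just under Stat3, at 41.2 ± 8.81 against 46.9 ± 7.79 FPKM (SD, n = 3), and Clcf1 was below Lifr. In Sham hearts the neighbours from Osmr down to Lifr overlapped, whereas Stat3, Socs3 and Osmr were apart from each other. In MI hearts the ranges overlapped between Stat3 and Il6st, between Il6st and Socs3 and between Osmr and Il6r, and the other neighbours down to Clcf1 were apart. In treated hearts the order down to Clcf1 was that of group MI, with Socs3 overlapping Osmr, and with Il6r apart from Osmr and overlapping Lifr.

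Each member's most similar genes were sought among 14157 genes by Pearson's r of log2(FPKM + 1) over the 9 rats, as a description only, since all points share the group differences. The most similar gene to Il6st was Tgfbr2, a receptor for transforming growth factor beta (r = 0.988), followed by Fbxw11 and Prkacb. Il6r was most like Svep1 (r = 0.989), Dnajb9 and Efemp2. Stat3 was most like Cnn2 (r = 0.988), Cpne8 and Lrrc25. Lifr was most like Ces1d (r = 0.983), Slamf9 and AABR07011672.1. Socs3 was most like Dusp6 (r = 0.976), a feedback phosphatase of the ERK pathway, Cebpd and Srp54a. Osmr was most like Med1 (r = 0.944), Agfg1 and Pla2g2a. Clcf1 was most like Brpf3 (r = 0.928), an unnamed locus and Zdhhc16. Among the members themselves r was highest for Il6st with Stat3 (0.94) and with Lifr (0.90).

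Other genes of the pathway were read from a list of 33 ligands, receptors, kinases, STATs, inhibitors and adaptors, of which 32 were found and 27 tested for MI vs. Sham. There 6 were called higher and 0 lower, against 12.1% and 10.3% of all genes, and the median log2 fold change was 0.45, where that of all genes was -0.01. At p under 0.05 alone 13 were higher and 2 lower, against 3310 and 3295 of 13485 genes. The lower ones were Socs2 at -0.88 and Sos1 at -0.73 (adjusted p of 0.0425 and 0.0165 by limma). Both were named after their values were seen. Ebi3, the beta chain that IL-27 and IL-35 share, rose by 2.05 (SE 0.34, adjusted p = 0.00465 by limma), from 0.873, 0 and 0.189 FPKM in the Sham rats to 2.66, 5.13 and 6.02 in the MI rats. It was the 1 gene of this list, and 1 of the 6 called, that met the level filter through the MI rats alone. The adaptor Shc1 rose by 1.13 (adjusted p = 0.00474), the IL-11 receptor chain Il11ra1 by 1.12 (adjusted p = 0.0087) and the phosphatase Ptpn6 by 1.38 (adjusted p = 0.0103). The lymphoid kinase Jak3 rose by 1.33 (adjusted p = 0.0341).

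The ligands Osm, Il11 and Il27 were too low to test, and Osm, which encodes oncostatin M, reached at most 1.45 FPKM in any rat. Other ligands of the list had higher levels. Ctf1, which encodes cardiotrophin 1, was at 2.32, 1.60 and 4.47 FPKM in the Sham rats, 4.66, 2.59 and 4.44 in the MI rats, and 3.90, 4.32 and 4.03 in the treated rats. Its log2 fold change was 0.41 for MI vs. Sham (SE 0.32, adjusted p = 0.348 by limma), and the groups overlapped. Cntf, for ciliary neurotrophic factor, ran from 1.35 to 5.07 FPKM over the 9 rats, with a log2 fold change of -0.20 for MI vs. Sham (SE 0.42, adjusted p = 0.73 by limma). Both were named after their values were seen.

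For MI + DAPA vs. MI 1 of 27 genes of the list was called lower and 0 higher, against 1.11% of all genes called lower. At p under 0.05 alone 3 were lower, against 3.9%, and none passed after adjustment in limma. These were Ebi3, Shc1 at -0.46 and Tyk2, a Janus kinase named after its value was seen, at -0.43 (adjusted p = 0.558 for each). Ebi3 was the called one, with a log2 fold change of -1.36 that did not pass after adjustment (SE 0.51, adjusted p = 0.558 by limma). Its level in group MI + DAPA was 1.36, 0 and 2.94 FPKM, so rat 3 of that group lay within the range of group MI.

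Of 27 genes commonly given as STAT3 targets or acute phase genes, 26 were found and 24 tested for MI vs. Sham. There 10 were called higher and 2 lower, against the same shares of all genes, with a median log2 fold change of 0.96. Serpina3n, a serine protease inhibitor of the acute phase, rose by 4.63 (SE 0.57, adjusted p = 0.00187 by limma), from 0.708, 0.0277 and 0.437 FPKM to 20.7, 89.2 and 18.5. It and Reg3b, named after its value was seen, met the level filter through the MI rats alone and were 2 of the 10 called higher. The metallothionein Mt2A rose by 3.53, the lipopolysaccharide-binding protein gene Lbp by 4.09 and the transcription factor Cebpb by 1.02 (adjusted p of 0.00295, 0.00329 and 0.00337 by limma). Vegfa, an angiogenic growth factor, fell by 2.62 (adjusted p = 0.000953), and Hp, for haptoglobin, fell by 1.76 (adjusted p = 0.00383), so the called members of this list did not move one way. For MI + DAPA vs. MI 0 of the 22 tested genes were called by limma, and 1 passed an unadjusted p under 0.05, against 3.9% of all genes lower, the kinase Pim1 at -0.99 (adjusted p = 0.558), named after its value was seen. The median log2 fold change was -0.06, where that of all genes was -0.02.

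**Figure D4:**
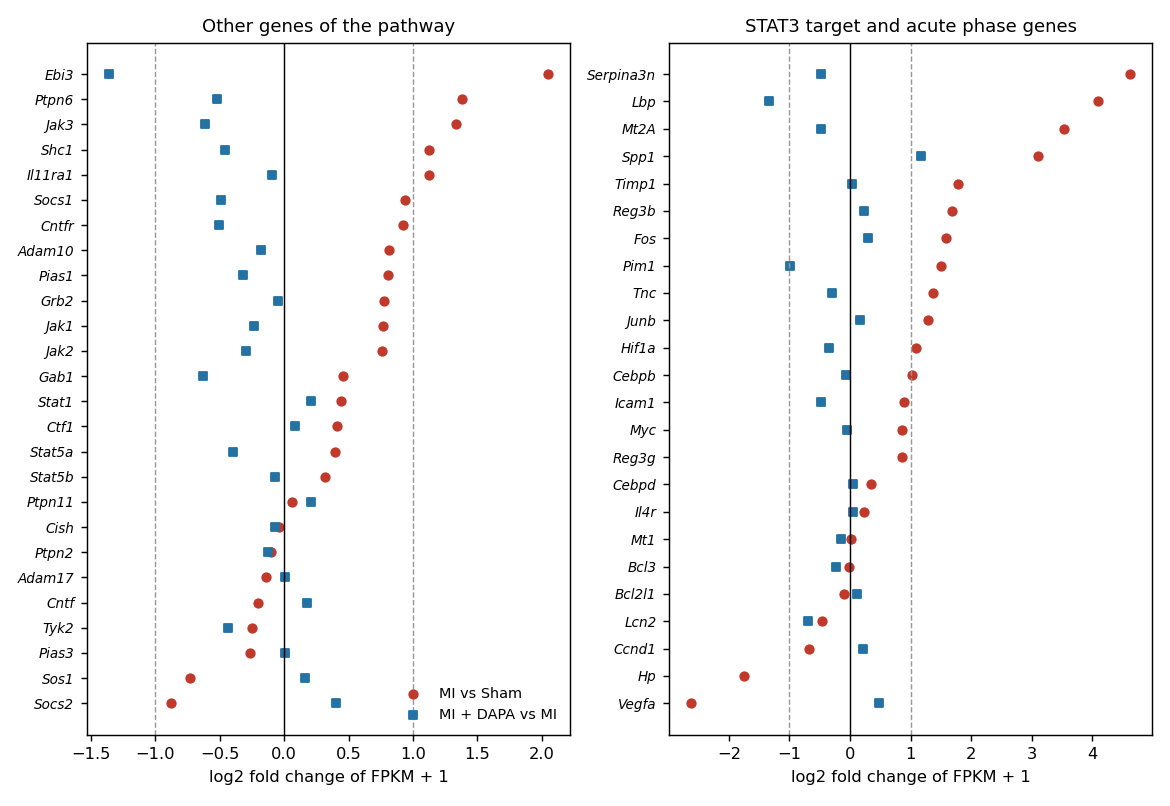
Log2 fold change of FPKM + 1 of 26 of the 27 other pathway genes tested (left) and 24 STAT3 target and acute phase genes (right) for MI vs. Sham (circles) and, where tested, MI + DAPA vs. MI (squares), ordered by the former; dashed lines mark an absolute value of 1. Ebi3 is the only square beyond a dashed line that was also called, at -1.36.

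Markers of several cell types in the tissue also differed between the groups, and their part in these results was not tested. Summed FPKM of 7 fibroblast markers was 328 to 523 in Sham, 1929 to 3543 in MI and 1532 to 1987 in MI + DAPA hearts. For MI vs. Sham 7 of 7 were called higher, against 12.1% of all genes. The 5 macrophage markers found summed to 38.4 to 112, 341 to 703 and 193 to 444 in the same order, with 5 of 5 called higher. T cell markers summed to 6.43 to 18.2, 57.2 to 230 and 30.9 to 60.7, and B cell markers to 1.93 to 4.40, 24.6 to 2936 and 6.24 to 9.88, with Cd3d and Ms4a1 at 0 in some rats. Cd4 and Jchain carried most of these sums in ligated hearts. Without Cd4 the T cell sum was 5.00 to 17.1 in Sham, 8.93, 106 and 25.9 in MI and 7.80 to 9.24 in treated hearts, so rat 1 of group MI and all treated rats lay within the Sham range. Without Jchain the B cell sum was 0.950 to 1.497 in Sham, 0.683, 55.6 and 8.74 in MI and 1.01 to 1.79 in treated hearts. The 8 cardiomyocyte markers, all detected in every rat, summed to 5556 to 8180, 1486 to 7275 and 5563 to 11593. They did not move one way. For MI + DAPA vs. Sham 2 were called higher and 1 lower, against 1274 and 1090 of 13359 genes. For MI vs. Sham 2 were called lower and 0 higher. Endothelial markers summed to 268 to 418, 124 to 152 and 149 to 189, and 3 of 4 were called lower for MI vs. Sham, against 10.3% of all genes. Smooth muscle and pericyte markers summed to 108 to 198, 255 to 357 and 236 to 405, with 2 of 4 called higher for MI vs. Sham. Adipocyte markers summed to 0 to 0.232, 0.326 to 0.793 and 0.965 to 8.09, so all treated rats lay above all others. Each adipocyte marker was at 0 in some rats, and all were too low to test. Neutrophil markers summed to 13.4 to 46.7, 17.4 to 68.5 and 12.0 to 173, with Mpo at 0 in some rats. For MI vs. Sham 2 of 5 T cell, 1 of 2 tested B cell and 1 of 3 tested neutrophil markers were called higher. The called neutrophil marker met the level filter through the MI rats alone, since every Sham rat was under 1 FPKM. For MI + DAPA vs. MI 2 of 8 cardiomyocyte markers were called higher, against 126 of 13251 genes. There 1 of 7 fibroblast, 2 of 5 T cell and 1 of 2 tested B cell markers were called lower, against 1.11%. No gene passed after adjustment there.

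Single rats stood apart in the same way for several members. Rat 2 of group MI had the highest Il6st, Il6r, Osmr, Lifr, Stat3 and Socs3 of its group, the lowest cardiomyocyte sum (1486) and the highest fibroblast, macrophage, T cell and B cell sums. Without it Il6st and Il6r were 2.29 and 1.36 higher than in group Sham and were still called. The difference of Il6r between treated and MI hearts was -0.51 without it and still passed an unadjusted p under 0.05 in limma. Rat 1 of group MI + DAPA had the highest Socs3 and the highest neutrophil sum (173), and rat 2 of that group had the lowest Il6st, Osmr, Stat3 and Socs3 and the lowest neutrophil sum (12.0).

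Library composition differed with the groups. From 13585059 to 17186144 reads per rat were recovered from the steps of the FPKM values. The library size behind the FPKM differed from these totals and was smaller in every Sham rat than in every ligated rat. Of the recovered reads, 13 mitochondrial genes took 59.9% to 65.8% in Sham, 6.93% to 18.7% in MI and 17.2% to 31.6% in MI + DAPA hearts. Scaling every rat to the same summed FPKM moved the median of all genes to 1.29 for MI vs. Sham, -0.34 for MI + DAPA vs. MI and 1.00 for MI + DAPA vs. Sham. Relative to that median Il6st was 2.58 and Il6r 1.499 higher for MI vs. Sham. Clcf1 and Il6r were -0.73 and -0.70 from it for MI + DAPA vs. MI, and before subtracting it, at -1.07 and -1.04, both were called.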

How the data were processed

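The authors sequenced poly-A selected libraries from 3 biological replicates per group and deposited a table of FPKM per gene and rat. Per the submitters' processing notes, the authors used HISAT2 2.0.5, StringTie 1.3.3b, featureCounts 1.5.0-p3 and DESeq2, and the genome build is not given in the sources used here. Columns were matched to rats by name, and 0 columns were left unused. Reads per gene were recovered from the steps of the FPKM values for 18892 of 18896 genes found in at least 4 libraries. The tolerance was 0.01 reads, and wider for genes with many reads. The recovered reads served for depth, for the counts and floors given for single genes, and for the simulated data, and not for the fold changes.

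The authors compared groups with DESeq2. As the table holds no counts, log2(FPKM + 1) was fitted here with limma 3.58.1 (R 4.3.3), 2 groups at a time, with a variance trend, over genes that reached FPKM 1 in 3 or more of the 6 rats, and p-values were adjusted by the Benjamini-Hochberg method over all genes tested. The fit was tested on simulated data whose groups had the same mean composition apart from a set of changed genes. That test did not cover the difference in library composition between the real groups. Single values were compared by exact permutation in scipy 1.17.1. Named beside the members were called genes of the 2 lists, by smallest p, and the 3 genes with the highest r to each member. Members and lists were chosen with earlier results of these data known. Alternatives were the pseudocount, filter, scaling, variance model, call rule, a replicate block and leaving out each rat. Intervals and floors cover counting error only. Cell type markers Pecam1, Itgam and Cd79a and the listed genes Il31 and Mcl1 were not analysed here. Of the genes counted in the lists, 1 pathway gene and 1 cell type marker are not reported singly here.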

Additional observations from a re-analysis of the deposited data

How the results depend on the processing

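In group MI vs. group Sham 2 members were called, 3 with a pseudocount of 0.1, 6 with every rat scaled to the same summed FPKM (TPM) and 4 at p under 0.05 with no fold threshold. In group MI + DAPA vs. group MI the 0 called became 1 with a pseudocount of 0.1, 2 with TPM and 2 with no fold threshold. In group MI + DAPA vs. group Sham the 1 called became 4 with a pseudocount of 0.1, 6 with TPM and 5 with no fold threshold. Leaving out each rat gave 2 to 2, 0 to 0 and 1 to 3 called in these comparisons, with 2 called without rat 2 of group Sham or rat 3 of group MI + DAPA and 3 without rat 1 of group MI + DAPA. TPM shifts the median of all genes, as given above, and with it the shares of all genes called were 64.8% (MI hearts above Sham), 49.2% (treated above Sham) and 3.68% (treated below MI). For the other settings the cause was not tested.

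TPM turned the direction of Clcf1 in group MI vs. group Sham to 0.78 and of Lifr in group MI + DAPA vs. group MI to -0.23, but relative to the median of all genes they were -0.51 and 0.11, in the direction of -0.25 and 0.10 without TPM. In group MI + DAPA vs. group MI leaving out single rats also turned values that were not called. Osmr ranged from -0.24 to 0.26 and was 0.04, 0.06 and 0.26 without rat 1 or 2 of group MI or rat 2 of group MI + DAPA. Lifr ranged from -0.10 to 0.21, Stat3 from -0.23 to 0.022 (without rat 2 of group MI + DAPA) and Socs3 from -0.90 to 0.28. Socs3 in group MI + DAPA vs. group Sham ranged from -0.29 to 0.89. The log2 ratio of Osmr to Lifr ranged from -0.55 to -0.21, -0.45 to 0.12 and -0.86 to -0.28 in the 3 comparisons, and that of Socs3 to Stat3 from -0.19 to 0.21, -0.69 to 0.26 and -0.66 to 0.29. Clcf1 was not tested without a rat of group MI, or of group Sham in the last comparison, because the filter then removed it.

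In the fit with a replicate block, 2, 0 and 1 members were called in the 3 comparisons. The paired log2 ratio of Osmr to Lifr was -0.41, -0.12 and -0.53, and that of Socs3 to Stat3 was 0.03, -0.13 and -0.10. These are the unpaired values, since pairing cannot move a mean difference between groups of equal size. Deviations of same-numbered rats of groups MI and MI + DAPA correlated at 0.03, -0.30 and -0.24, so the numbers were not taken to pair rats. Of the alternative fold changes of single members, 279 kept direction and side of the threshold, 20 newly passed it and 10 turned direction. These counts include settings that cannot move a fold change, namely the filters, the variance model, the replicate block and a fit of all rats together. The 279 are therefore no measure of how stable the values are. With 3 rats per group a small change could be missed, and Il6 and Lif were limited by counts of 0 to 23 reads.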
